A study of Mus musculus with 12 samples.

Results

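The 10 genes described here encode parts of interleukin-6 (IL-6) family signalling: the cytokines Il6 and Lif, the receptor chains Il6ra, Il6st, Osmr and Lifr, the transcription factor Stat3, and the feedback inhibitors Socs1, Socs2 and Socs3. They were taken by symbol from a table of 25553 genes, and all 10 were present. Kidneys came from wild-type mice in 4 groups of 3, with 1 library per mouse. Preconditioned RIRI mice spent 2 h, 4 h and 8 h on days 1, 2 and 3 in a normobaric chamber at 8% oxygen, and then had renal ischemia-reperfusion injury (RIRI), in which both renal pedicles were clamped for 45 min and the kidneys were taken after 12 h of reperfusion. Normoxic RIRI mice had the same injury without hypoxia. Preconditioned sham mice had the hypoxia without RIRI, and normoxic sham mice had neither. The strain, age and sex of the mice are not in the labels. Both RIRI groups were sampled at 12 h of reperfusion alone, and no sampling time is recorded here for the sham groups. No course over time can therefore be read from the 4 groups.

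IL-6 family cytokines signal through receptor complexes that share the chain gp130, which Il6st encodes. IL-6 first binds the chain encoded by Il6ra, leukaemia inhibitory factor (the product of Lif) joins gp130 to the chain encoded by Lifr, and mouse oncostatin M joins it to the chain encoded by Osmr. Kinases of the JAK family on these receptors phosphorylate STAT3, which enters the nucleus and raises the transcription of, among others, Socs3 and its own gene, and SOCS3 then binds gp130 and shuts the receptor down. In the kidney this pathway is known for its activity in tubule cells and in infiltrating leukocytes after acute injury. RNA levels do not measure phosphorylated STAT3.

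Levels are given as FPKM, fragments scaled to gene length and library depth, a unit that allows genes of different length to be set side by side. The libraries held between 33096854 and 35707662 reads, as recovered from the FPKM, and between 11301 and 11804 genes reached an FPKM of 1. All 10 genes were among the 12357 that passed the filter of FPKM 1 in at least 3 libraries, but Il6, Lif, Il6ra and Socs2 reached it in RIRI libraries alone, so that a difference with injury was built into their passing. The kidney label was checked against markers of its cell types. Proximal tubule markers summed to 1228 to 1485 FPKM in preconditioned RIRI, 914 to 1187 in normoxic RIRI, 3050 to 3151 in preconditioned sham and 2999 to 3201 in normoxic sham kidneys. Neutrophil markers summed to 23.7 to 111 FPKM in preconditioned RIRI, 132 to 295 in normoxic RIRI, 1.75 to 4.39 in preconditioned sham and 2.44 to 15.1 in normoxic sham kidneys, and all 10 were present above 0 in some library of each group except Ly6g and Camp, which were at 0 in preconditioned sham kidneys. In whole kidneys, fewer cells of a type and less RNA per cell cannot be told apart. Changes are log2 fold changes of FPKM + 1 with their standard error (SE), and a gene was called at an adjusted p (limma, Benjamini-Hochberg over all genes tested) under 0.05.

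Injury moved nearly the whole set in mice without preconditioning. In normoxic RIRI against normoxic sham kidneys, 8 of the 10 genes were higher and 1, Lifr, was lower, where 41.6% of all genes tested were called higher, 30.1% lower and 71.7% in either direction. Among the 8 were Il6, Lif, Il6ra and Socs2, whose passing of the filter had a difference with injury built in. Their counts and changes are therefore no independent sign of a rise. For 9 of the 10 all RIRI kidneys lay on 1 side of all sham kidneys, as in 74.3% of all genes tested. The median change of the 10 genes was 1.84, beside 0.10 for all genes tested. Rescaling the libraries by their median ratio moved that median of all genes to -0.03, and the higher share of all calls to 47.6% (51.21% with quantile normalization) as against 58.05% as deposited, but changed no call among the 10 genes in this comparison.

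With preconditioning, injury raised 7 of the 10 genes and lowered Lifr. In this comparison of preconditioned RIRI with preconditioned sham kidneys, 33% of all genes tested were called higher, 19.4% lower and 52.4% in either direction. The same limit of the filter holds for Il6, Lif and Socs2, which were among the genes raised. There was no overlap between these groups for 9 of the 10, as in 63.3% of all genes tested. The median change of the 10 genes was 1.32, whether Il6 was taken as fitted or at its bound, beside 0.10 for all genes tested. Here 47.58% of all calls were higher after rescaling and 51.09% after quantile normalization, as against 63.01% as deposited. Without preconditioned RIRI replicate 1, which had the highest Il6, Lif and neutrophil marker values of its group, the same counts of 7 higher and 1 lower were found and the median was 0.87.

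Between the injured groups, 5 of the 10 genes were lower in preconditioned RIRI than in normoxic RIRI kidneys, namely Il6, Il6ra, Stat3, Socs2 and Socs3, and 1, Lifr, was higher. Of all genes tested, 17.4% were called lower, 24.7% higher and 42.1% in either direction. The median change of the 10 genes was -0.48, beside 0.06 for all genes tested, and 48.18% of all calls were higher after quantile normalization as against 58.68% as deposited. Without preconditioned RIRI replicate 1, 6 of the 10 were lower and 1 higher. Without preconditioned RIRI replicate 2 or normoxic RIRI replicate 2 the calls were 3, Il6ra and Socs3 lower and Lifr higher.

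Preconditioning alone called none of the 10 genes. In preconditioned sham against normoxic sham kidneys, limma called 0.421% of all genes tested, and among the 10 genes 1, Lifr, had an unadjusted p under 0.05 (0.17 ± 0.07, limma adjusted p = 0.295). Limma voom on recovered reads called 0 of the 10 as well, with 2 at an unadjusted p under 0.05. Il6st was lower and Lifr higher in all preconditioned sham kidneys than in all normoxic sham kidneys, and 29.4% of all genes tested separated in this way.

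**Figure D1:**
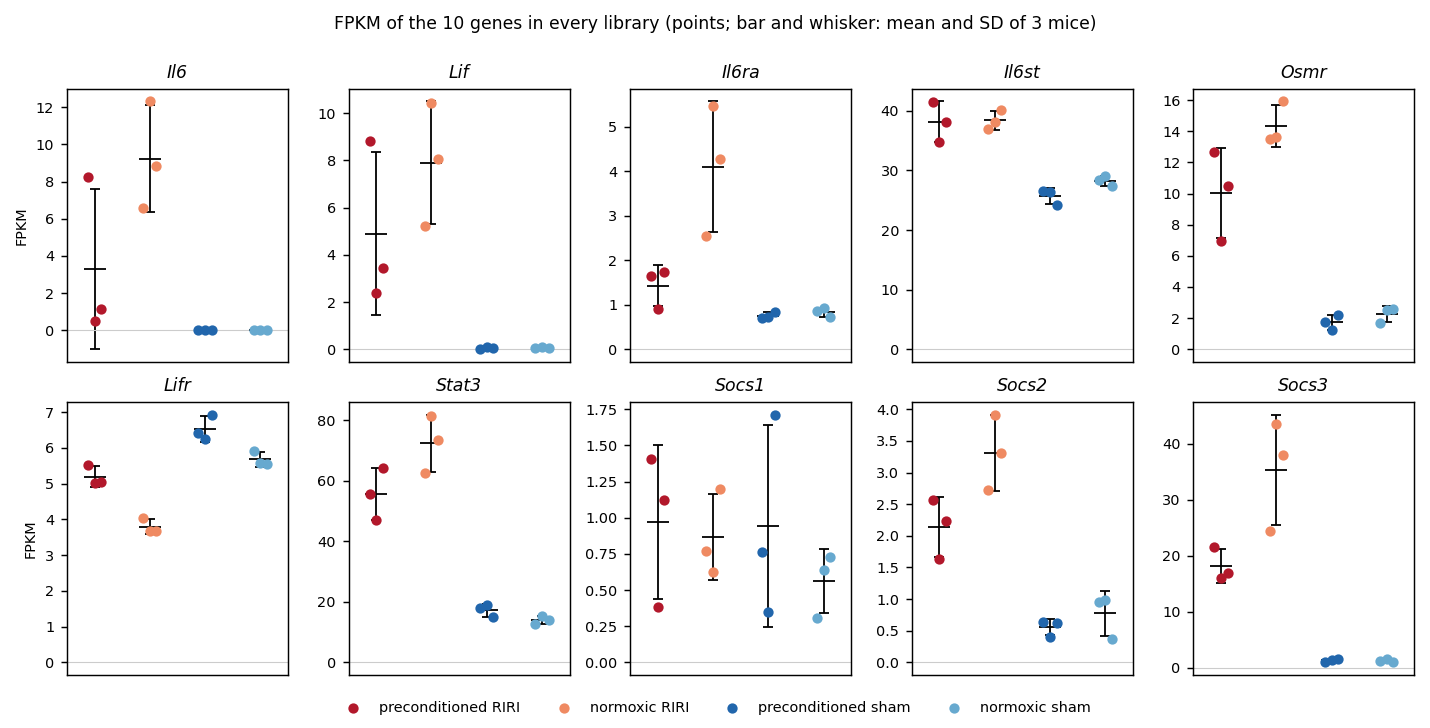
FPKM of each of the 10 genes (vertical axes, linear and different for each gene) in every library, 1 point per mouse, with a bar and whisker at the mean and SD of the 3 mice of each group. In 8 of the panels the RIRI points stand above the sham points in normoxic mice, Lifr runs the other way, and the Socs1 groups overlap.

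The ligand genes Il6 (chr5:30013114-30019975 on mm10) and Lif (chr11:4257568-4272514) were close to absent from sham kidneys and present in injured ones. Il6 had 8.25, 0.471 and 1.14 FPKM in preconditioned RIRI kidneys and 6.55, 12.3 and 8.85 FPKM in normoxic RIRI kidneys. It had 0 FPKM in all 3 preconditioned sham kidneys and 0, 0 and 0.0245 FPKM in normoxic sham kidneys, where the last value was a single read. Replicate 1 of the preconditioned RIRI group lay within the range of the normoxic RIRI group and the other two lay below all of it, so the injured groups overlapped, and neither overlapped with its sham group.

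In preconditioned RIRI against preconditioned sham kidneys Il6 rose by 1.62 ± 0.50 (limma adjusted p = 0.0168), or by 0.83 without replicate 1 of the RIRI group (0.00815), and the call was lost without a filter on low genes (0.0525) and in a fit of only these 2 groups (0.0532). In normoxic RIRI against normoxic sham kidneys it rose by 3.31 ± 0.50 (limma adjusted p = 8.35e-05). With other ways of handling low values the fitted rise was larger, up to 6.99 in preconditioned and 8.95 in normoxic mice. Because no read of Il6 was found in preconditioned sham kidneys, its fold there is a lower bound: 388 reads in the 3 preconditioned RIRI libraries, 386.1 after scaling to equal depth, were at least 128.7-fold more than the 3 reads that a count of 0 allows over the group, counting error only. Of these 388 reads, 324 were in replicate 1, and the bound, taken per library, was 31.6-fold without it, 183.8-fold without replicate 2 and 170.7-fold without replicate 3. Preconditioned RIRI kidneys had less Il6 than normoxic RIRI kidneys, with a change of -1.70 ± 0.50 (limma adjusted p = 0.0178). That difference was -2.49 without preconditioned RIRI replicate 1 (limma adjusted p = 3.37e-05). It was no longer called without preconditioned RIRI replicate 2 (-1.16, limma adjusted p = 0.0733) or 3 (-1.43, 0.0649), without normoxic RIRI replicate 2 (-1.49, 0.0641), without a filter (0.0559) or in a fit of the 2 groups alone (0.0754).

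Lif had 8.83, 2.41 and 3.44 FPKM in preconditioned RIRI kidneys, 5.23, 10.4 and 8.05 FPKM in normoxic RIRI kidneys, 0.0105, 0.0841 and 0.0541 FPKM in preconditioned sham kidneys and 0.0797, 0.0918 and 0.0502 FPKM in normoxic sham kidneys. The order of the injured libraries was nearly that of Il6: preconditioned RIRI replicate 1 was second to normoxic RIRI replicate 2, and preconditioned replicates 2 and 3 were lowest. Injury raised Lif by 2.34 ± 0.31 in preconditioned mice (limma adjusted p = 9.26e-05) and by 3.01 ± 0.31 in normoxic mice (4.17e-06), and mean FPKM was 98.6 times that of sham in preconditioned and 107 times in normoxic mice. The ratio in preconditioned mice was 58.9 without RIRI replicate 1 and 151 without sham replicate 2. The difference of preconditioned from normoxic RIRI kidneys was -0.71 ± 0.31 and was not called (limma adjusted p = 0.0911; 95% interval -1.39 to -0.02). It was called without preconditioned RIRI replicate 1 (-1.15, limma adjusted p = 0.00183) and without normoxic RIRI replicate 1 (-0.94, 0.0402).

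The bases before the start of Il6 are shown because they hold, in capitals, matches to a trio of motifs that mark binding sites of factors of cytokine genes. These are TGANTCA of AP-1, TTNNGCAA of C/EBP and the NF-kB motif, searched on both strands and added after the data were seen, and their matches do not overlap.
Il6 (RefSeq, GRCm38.p6, chr5:30012864-30013113, plus strand): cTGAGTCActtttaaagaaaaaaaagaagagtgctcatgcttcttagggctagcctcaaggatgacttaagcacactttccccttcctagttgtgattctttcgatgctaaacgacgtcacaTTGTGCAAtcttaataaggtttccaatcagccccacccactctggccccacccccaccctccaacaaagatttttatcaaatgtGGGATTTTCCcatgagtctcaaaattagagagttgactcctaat
In that order the matches start 249, 128 and 44 bases before the start. In windows of 300 bases, 250 before to 50 after the start, TGANTCA is held by 7.81%, TTNNGCAA by 10.8% and the NF-kB motif by 0.411% of 32851 RefSeq promoters. Lif also holds TGANTCA, 228 bases before its start, and Osmr holds it 4 bases after. A match describes the letters and no binding was measured.

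**Figure D2:**
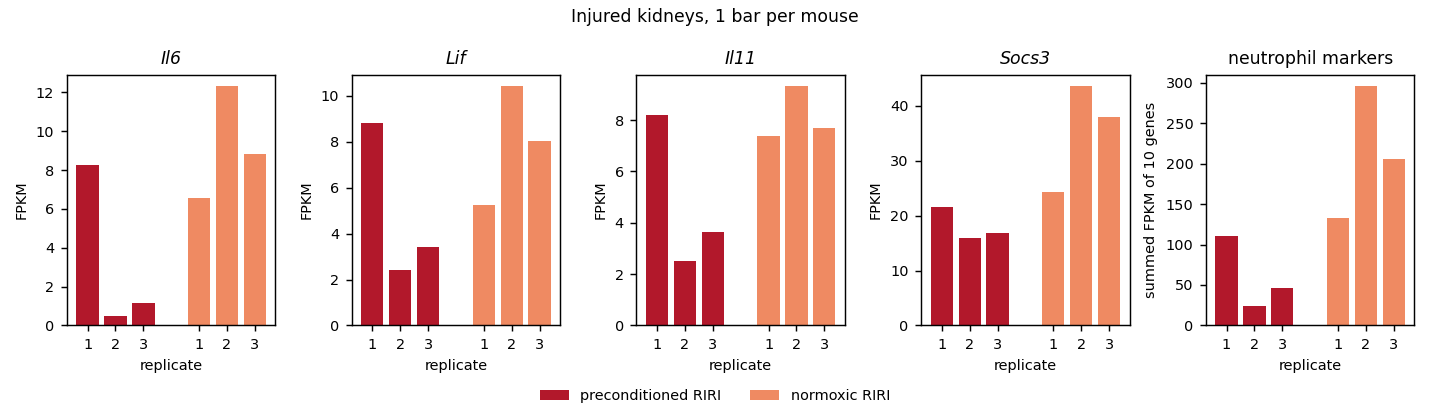
FPKM of Il6, Lif, Il11 and Socs3 and the summed FPKM of 10 neutrophil markers in each injured kidney, 1 bar per mouse, with vertical axes from 0. Preconditioned RIRI replicate 1 stands above replicates 2 and 3 in every panel, reaching 8.25 FPKM of Il6 and 111 FPKM of neutrophil markers.

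Among other ligand genes of the family, Il11 and Clcf1 were raised by injury in both settings and Ctf1, which encodes cardiotrophin-1, was lowered in both. Clcf1, which encodes a cytokine that signals through gp130, had 17.8, 11.1 and 18.3 FPKM in preconditioned RIRI kidneys, 36.2, 32.1 and 37.4 in normoxic RIRI kidneys, 1.86, 1.29 and 0.893 in preconditioned sham kidneys and 1.58, 1.40 and 1.67 in normoxic sham kidneys. Injury thus changed Clcf1 by 3.83 ± 0.18 in normoxic mice and the level in preconditioned RIRI kidneys was lower by -1.14 ± 0.18 (limma adjusted p = 0.000532), with no overlap between the injured groups. Il11 had 8.19, 2.51 and 3.63 FPKM in preconditioned RIRI and 7.39, 9.31 and 7.68 FPKM in normoxic RIRI kidneys, against at most 0.0971 in preconditioned sham and 0.118 in normoxic sham kidneys, so that it passed the filter through RIRI libraries alone. Preconditioned RIRI replicate 1 was again the highest of its group, and the change between the injured groups was -0.78 ± 0.26 (limma adjusted p = 0.0298). That call was lost without preconditioned RIRI replicate 2 (-0.48, limma adjusted p = 0.118) or 3 (-0.68, 0.0921) and without normoxic RIRI replicate 2 (-0.69, 0.0937) or 3 (-0.81, 0.0563). Ctf1 ran the other way, at -0.43 ± 0.08 with injury in normoxic mice and 0.36 ± 0.08 in preconditioned against normoxic RIRI kidneys (limma adjusted p = 0.00435). In preconditioned mice Ctf1 changed with injury by -0.26 ± 0.08 (limma adjusted p = 0.0171). That call was lost with limma voom on recovered reads (-0.33, 0.0699). It was also lost without preconditioned RIRI replicate 3 (-0.23, limma adjusted p = 0.0559) or preconditioned sham replicate 1 (-0.22, 0.0684). Osm, the ligand of the Osmr chain, did not pass the filter. It had 0.125, 0.106 and 0.0934 FPKM in preconditioned RIRI kidneys, against 0.159, 0.337 and 0.267 FPKM in normoxic RIRI kidneys. These values rest on 8, 7 and 6 recovered reads in preconditioned and 10, 21 and 17 in normoxic RIRI kidneys. In sham kidneys Osm had 0.0157, 0 and 0.0162 FPKM with preconditioning and 0.0159, 0.107 and 0.0451 FPKM without it. Osm lies 16.5 kb from Lif on chromosome 11 with no annotated gene between them.

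The receptor genes did not move together. Injury raised Osmr and Il6st and lowered Lifr in both settings, and raised Il6ra in normoxic mice, while the change of Il6ra in preconditioned mice, 0.45 ± 0.19, was not called (limma adjusted p = 0.0684). By level, Il6st was the highest of the 4 chains in every group, and Il6ra was the lowest of the 4 in preconditioned RIRI kidneys and in both sham groups.

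Il6ra (chr3:89869324-89913196), the IL-6 binding chain that hepatocytes and some leukocytes carry, had 1.64, 0.896 and 1.74 FPKM in preconditioned RIRI kidneys and 2.56, 5.48 and 4.28 FPKM in normoxic RIRI kidneys. It had 0.694, 0.721 and 0.841 FPKM in preconditioned sham and 0.851, 0.927 and 0.721 FPKM in normoxic sham kidneys. Every normoxic RIRI value lay above every other value, while the lowest preconditioned RIRI value lay within the range of normoxic sham kidneys. In preconditioned mice the change of Il6ra with injury was 0.45 ± 0.19 and was not called (limma adjusted p = 0.0684), though it was called without preconditioned RIRI replicate 2 (0.62, 0.0199) and without normoxic RIRI replicate 1 (0.45, 0.0179) or 2 (0.45, 0.0362). It was also called with a pseudocount of 0.1 (0.79, limma adjusted p = 0.0325) and in a fit of these 2 groups alone (0.45, 0.036). In normoxic mice injury raised it by 1.44 ± 0.19 (limma adjusted p = 3.35e-05). Preconditioned RIRI kidneys were lower than normoxic RIRI kidneys by -1.05 ± 0.19 (limma adjusted p = 0.00147), a call kept in all 20 alternatives in which Il6ra was tested. The neutrophil marker sums, 111, 23.7 and 46.7 FPKM in preconditioned RIRI and 132, 295 and 206 FPKM in normoxic RIRI kidneys by replicate, moved in the same direction as Il6ra between the injured groups, and their part in the result was not tested.

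Il6st (chr13:112464070-112506860), which encodes gp130, had 41.6, 34.7 and 38.2 FPKM in preconditioned RIRI kidneys and 37.0, 38.1 and 40.2 FPKM in normoxic RIRI kidneys. It had 26.5, 26.4 and 24.3 FPKM in preconditioned sham and 28.4, 29.0 and 27.3 FPKM in normoxic sham kidneys. The injured groups overlapped fully and both stood above both sham groups. Injury raised it by 0.55 ± 0.08 in preconditioned mice (limma adjusted p = 0.000108) and by 0.43 ± 0.08 in normoxic mice (0.000271). The difference between the injured groups was -0.01 with a 95% interval of -0.18 to 0.15.

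Osmr (chr15:6813568-6874968), the oncostatin M receptor chain, had 12.7, 6.92 and 10.5 FPKM in preconditioned RIRI kidneys, 13.5, 13.7 and 15.9 FPKM in normoxic RIRI kidneys, 1.72, 1.24 and 2.22 FPKM in preconditioned sham kidneys and 1.69, 2.50 and 2.57 FPKM in normoxic sham kidneys. All injured kidneys were above all sham kidneys, and all preconditioned RIRI kidneys were below all normoxic RIRI kidneys, as the groups were separate in 47.7% of all genes tested in that comparison. Injury raised Osmr by 2.00 ± 0.19 in preconditioned mice (limma adjusted p = 8.62e-06) and by 2.25 ± 0.19 in normoxic mice (8.28e-07). The difference between the injured groups was -0.51 ± 0.19 and just missed the threshold (limma adjusted p = 0.0521). It was called in 8 of 21 alternatives, among them rescaling (-0.55, 0.0374), quantile normalization (-0.53, 0.0445) and leaving out preconditioned RIRI replicate 1 (-0.68, 0.0171), preconditioned sham replicate 2 (-0.51, 0.0483) or 3 (-0.51, 0.0489) or normoxic sham replicate 1 (-0.51, 0.0493).

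Lifr (chr15:7090610-7197489), the leukaemia inhibitory factor receptor chain, was the one member that injury lowered. It had 5.53, 5.01 and 5.03 FPKM in preconditioned RIRI kidneys and 4.04, 3.67 and 3.68 FPKM in normoxic RIRI kidneys. It had 6.41, 6.24 and 6.93 FPKM in preconditioned sham and 5.92, 5.56 and 5.56 FPKM in normoxic sham kidneys. The groups did not overlap and stood in the order preconditioned sham, normoxic sham, preconditioned RIRI, normoxic RIRI from high to low. The change with injury was -0.28 ± 0.07 in preconditioned mice (limma adjusted p = 0.00497) and -0.48 ± 0.07 in normoxic mice (6.14e-05), and preconditioned RIRI kidneys were higher than normoxic RIRI kidneys by 0.37 ± 0.07 (0.00168). The last call was kept in all 21 alternatives. Lifr and Osmr lie 216 kb apart on chromosome 15 with 3 annotated genes but 0 protein-coding genes between them, so that neighbouring receptor genes changed in opposite directions with injury. Proximal tubule markers were also lower in the injured groups and higher in preconditioned than in normoxic RIRI kidneys. Between the injured groups 3 of 5 were called higher, beside 24.7% of all genes tested. The part of these markers in the Lifr result was not tested.

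**Figure D3:**
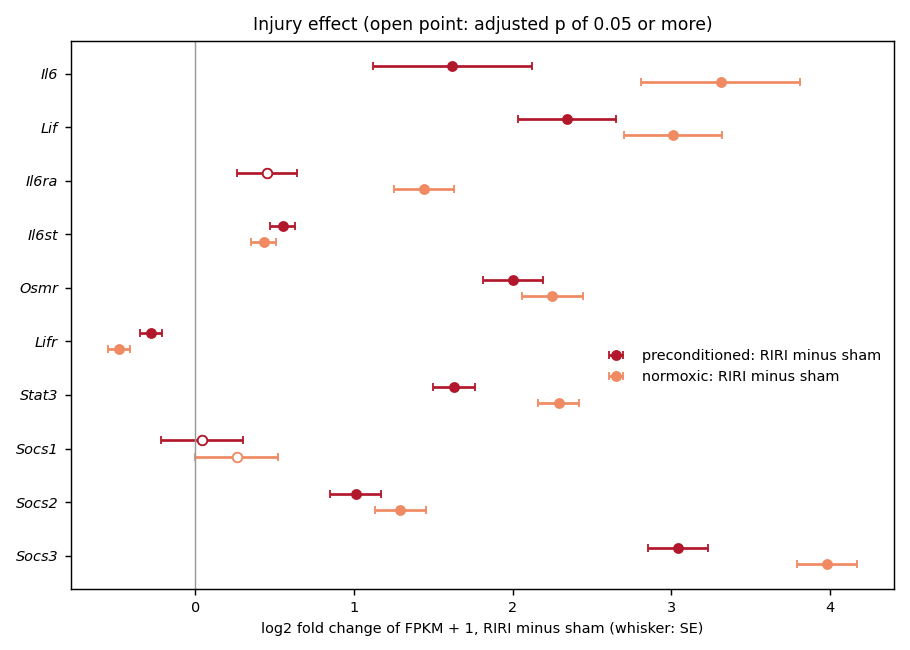
Log2 fold change of FPKM + 1 with injury for the 10 genes, preconditioned RIRI minus preconditioned sham above normoxic RIRI minus normoxic sham for each gene, with SE whiskers, and open points where the adjusted p was 0.05 or more. On this scale, which understates low genes, Socs3 has the largest change in both settings, 3.04 and 3.98, and Lifr alone lies below 0 in both.

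Of 6 other receptor and shedding genes, 4 passed the filter. Il11ra1, which encodes the IL-11 binding chain, had 27.6, 37.3 and 27.7 FPKM in preconditioned RIRI, 22.6, 20.1 and 21.4 in normoxic RIRI, 42.8, 50.1 and 46.2 in preconditioned sham and 44.8, 47.2 and 47.9 in normoxic sham kidneys. It was lower in injured than in sham kidneys and, among injured ones, higher with preconditioning, with changes of -1.09 ± 0.11 with injury in normoxic mice and 0.50 ± 0.11 in preconditioned against normoxic RIRI kidneys (limma adjusted p = 0.00372). Cntfr, the binding chain for ciliary neurotrophic factor, fell by 0.65 on the log2 scale with injury in normoxic mice (-0.65 ± 0.13, limma adjusted p = 0.000702), but it reached FPKM 1 in sham libraries alone, so that a difference was built into its passing. Adam10, a protease that can shed the IL-6 receptor from cells, rose by 0.36 ± 0.07 with injury in normoxic mice (limma adjusted p = 0.000542). In preconditioned mice its change of 0.17 ± 0.07 was not called (limma adjusted p = 0.0595), but was with a filter at FPKM 5 (0.048). Adam17, the other such protease, was not called in any of the 5 comparisons.

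Stat3 (chr11:100886806-100939594) was the most abundant of the 10 genes in both injured groups and the second after Il6st in both sham groups. It had 55.6, 47.1 and 64.2 FPKM in preconditioned RIRI kidneys and 62.6, 81.4 and 73.4 FPKM in normoxic RIRI kidneys. It had 18.0, 18.8 and 14.9 FPKM in preconditioned sham and 12.8, 15.3 and 14.0 FPKM in normoxic sham kidneys. All injured kidneys were far above all sham kidneys, and the injured groups overlapped by 1 library each, the highest preconditioned and the lowest normoxic one. Injury raised Stat3 by 1.63 ± 0.13 in preconditioned mice (limma adjusted p = 2.25e-06) and by 2.29 ± 0.13 in normoxic mice (3.95e-08), which are ratios of mean FPKM of 3.23 and 5.17. Preconditioned RIRI kidneys were lower than normoxic RIRI kidneys by -0.38 ± 0.13 (limma adjusted p = 0.0363). That call was lost without preconditioned RIRI replicate 1 (-0.38, 0.069) or 2 (-0.27, 0.146), without normoxic RIRI replicate 2 (-0.29, 0.127) or 3 (-0.37, 0.084), without a filter (0.08) and in a fit of the 2 groups alone (0.0857).

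Of the kinases and other STAT genes, Jak3, a kinase of lymphocyte cytokine receptors, rose by 0.95 ± 0.14 with injury in normoxic mice (limma adjusted p = 8.09e-05), Stat6 by 0.38 ± 0.09 (0.00188) and Jak2 by 0.39 ± 0.10 (0.00549). The Jak2 call was lost with median-ratio rescaling (0.27, limma adjusted p = 0.0519). None of these 3 genes was called between the injured groups. Jak1, the main kinase of gp130, was at 38.0 to 47.6 FPKM in preconditioned RIRI, 37.2 to 42.3 in normoxic RIRI, 38.9 to 40.8 in preconditioned sham and 39.0 to 40.9 in normoxic sham kidneys and was not called in any comparison. Stat5a and Stat5b, neighbours of Stat3 with a gap of 1.64 kb between Stat3 and Stat5a, were not called with injury in normoxic mice on the values as deposited, but were called lower after rescaling (-0.27 and -0.24). In preconditioned mice Stat5b was called lower as deposited (-0.26 ± 0.08, limma adjusted p = 0.021) and Stat5a was not. The Stat5b call was lost without preconditioned RIRI replicate 1 (-0.25, limma adjusted p = 0.0556) or preconditioned sham replicate 2 (-0.23, 0.0743).

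Socs3 (chr11:117966079-117970336), the feedback inhibitor of gp130, had the largest injury change of the 10 genes on the log2(FPKM + 1) scale, which understates the changes of Il6 and Lif, and by ratio of mean FPKM Lif was above it. It had 21.5, 16.0 and 16.9 FPKM in preconditioned RIRI kidneys and 24.3, 43.5 and 37.9 FPKM in normoxic RIRI kidneys. It had 1.06, 1.32 and 1.56 FPKM in preconditioned sham and 1.15, 1.57 and 1.03 FPKM in normoxic sham kidneys. The sham groups overlapped and the injured groups did not overlap with them or with each other, although preconditioned RIRI replicate 1 and normoxic RIRI replicate 1 were close. Injury raised Socs3 by 3.04 ± 0.19 in preconditioned mice (limma adjusted p = 4.36e-07) and by 3.98 ± 0.19 in normoxic mice (1.03e-08), and mean FPKM was 13.8 times that of sham in preconditioned and 28.2 times in normoxic mice. Preconditioned RIRI kidneys were lower than normoxic RIRI kidneys by -0.89 ± 0.19 (limma adjusted p = 0.00318), and this call was kept in all 21 alternatives.

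The bases before the start that RefSeq gives for Socs3 are shown because they hold, in capitals, the element TTCNNNGAA that STAT proteins bind, here 154 bases before the start. Socs3 alone of the 9 genes with an entry holds it in the 300 bases searched, as do 8.3% of 32851 promoters, and the same element with 1 more base in the middle, which 6.95% hold, was found in none of the 9.
Socs3 (RefSeq, GRCm38.p6, chr11:117969367-117969616, minus strand): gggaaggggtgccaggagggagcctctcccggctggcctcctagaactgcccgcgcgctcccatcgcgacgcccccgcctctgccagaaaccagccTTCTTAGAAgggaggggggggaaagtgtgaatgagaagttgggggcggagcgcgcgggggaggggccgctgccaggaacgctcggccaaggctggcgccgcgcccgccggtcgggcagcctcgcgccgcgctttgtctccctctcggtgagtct
This window lies inside the annotated span of the gene, which includes transcripts with an earlier start. Stat3, Il6st, Il6ra, Lifr and Socs1 hold none of the 5 motifs searched in their windows, which says only that these letters are not there.

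Socs2 (chr10:95383903-95417321), best known as the inhibitor of the growth hormone receptor, was raised by injury at a lower level. It had 2.57, 1.63 and 2.24 FPKM in preconditioned RIRI kidneys and 2.72, 3.92 and 3.30 FPKM in normoxic RIRI kidneys. It had 0.643, 0.406 and 0.616 FPKM in preconditioned sham and 0.958, 0.989 and 0.370 FPKM in normoxic sham kidneys. The injured groups did not overlap with the sham groups or, by a narrow gap, with each other. Injury raised Socs2 by 1.01 ± 0.16 in preconditioned mice (limma adjusted p = 0.000338) and by 1.29 ± 0.16 in normoxic mice (2.06e-05). Preconditioned RIRI kidneys were lower than normoxic RIRI kidneys by -0.46 ± 0.16 (limma adjusted p = 0.0418), a call lost in 10 of 20 alternatives, at adjusted p up to 0.16. Among these were leaving out preconditioned RIRI replicate 2 (-0.33, 0.16) or 3 (-0.48, 0.0694), normoxic RIRI replicate 2 (-0.36, 0.144) or 3 (-0.45, 0.0867) and preconditioned sham replicate 1 (-0.46, 0.0538) or 3 (-0.46, 0.0525), a pseudocount of 0.1 (0.133) and no filter (0.1).

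Socs1 (chr16:10783808-10785536), an inhibitor of JAK kinases best known from interferon signalling, was not called in any comparison. It had 1.41, 0.380 and 1.13 FPKM in preconditioned RIRI kidneys and 0.772, 0.625 and 1.20 FPKM in normoxic RIRI kidneys. It had 0.765, 0.350 and 1.71 FPKM in preconditioned sham and 0.310, 0.637 and 0.731 FPKM in normoxic sham kidneys. All 4 groups overlapped. With injury Socs1 changed by 0.04 (95% interval -0.52 to 0.60) in preconditioned mice and by 0.26 (-0.30 to 0.82) in normoxic mice, and it differed by 0.05 (-0.51 to 0.61) between the injured groups.

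By level, the order of the 10 genes changed with injury. In preconditioned RIRI kidneys Stat3 was followed by Il6st, Socs3 and Osmr, with means of 55.6, 38.1, 18.1 and 10.04 FPKM that did not overlap, and the 6 genes below them overlapped each with the next. In normoxic RIRI kidneys the same 4 led, at 72.5, 38.4, 35.3 and 14.4 FPKM, but Il6st and Socs3 overlapped. In both sham groups Il6st, Stat3 and Lifr led, at 25.7, 17.3 and 6.52 FPKM in preconditioned sham and 28.2, 14.0 and 5.68 FPKM in normoxic sham kidneys, without overlap. Socs3 stood below Osmr in both sham groups, with means of 1.31 FPKM in preconditioned and 1.25 FPKM in normoxic sham kidneys.

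Across the 12 libraries, the genes whose log2(FPKM + 1) was most like that of Socs3 were Sbno2, Lcn2 and Myh9, each with a Pearson r of 0.994, and 2542 genes had an r over 0.9. For Socs2 they were Fez2 (0.99), Grb10 (0.985) and Bend3 (0.984), with 1830 genes over 0.9. These values describe 12 libraries of 4 groups that differ by injury in most genes.

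A separate test asked whether the size of the injury effect depended on preconditioning, by subtracting the normoxic effect of injury from the preconditioned one. For 3 of the 10 genes, Il6ra, Stat3 and Socs3, this difference was called and negative, where 12.6% of all genes tested were called lower, 11.3% higher and 23.9% in either direction, a share near that of the 10 genes. It was -0.98 ± 0.27 for Il6ra (limma adjusted p = 0.0241), -0.66 ± 0.19 for Stat3 (0.0255) and -0.94 ± 0.27 for Socs3 (0.0264). For Il6 it was -1.68 ± 0.70 and for Lif -0.67 ± 0.45, neither called (limma adjusted p = 0.103 and 0.292). Without preconditioned RIRI replicate 1 both were called, Il6 at -2.48 (limma adjusted p = 0.000576) and Lif at -1.12 (0.0171), and 5 genes were called in all. In the other alternatives neither was called, and with voom on recovered reads the limma adjusted p of Il6 was 0.563 and the value of Lif turned to 0.02 (0.995). The number of calls was 0 without preconditioned RIRI replicate 2 or normoxic sham replicate 3, and 1 without normoxic RIRI replicate 2 or 3, preconditioned sham replicate 2 or 3 or normoxic sham replicate 1. The other 5 genes had differences between -0.29 and 0.20 that were not called.

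**Figure D4:**
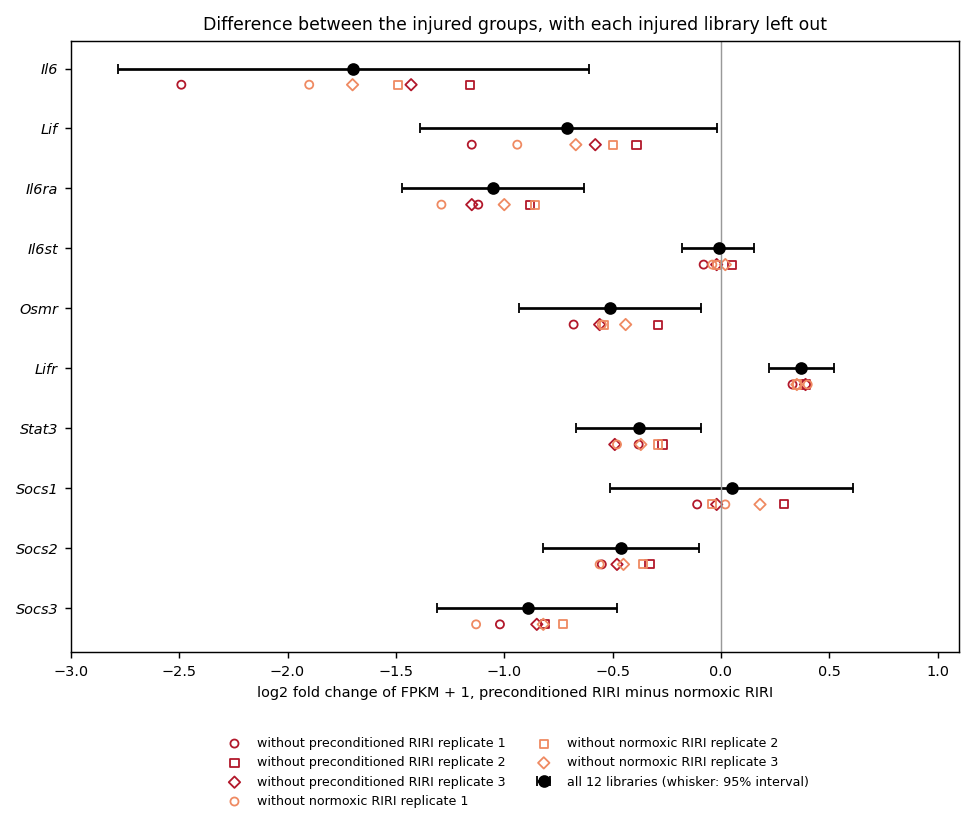
Log2 fold change of FPKM + 1 in preconditioned RIRI minus normoxic RIRI kidneys for the 10 genes, with 95% intervals (filled points) and the value without each injured library in turn (open points). Il6 moves between -2.49 and -1.16 and Lifr between 0.33 and 0.40 with the library left out.

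Genes known as targets of STAT3, many of which other inflammatory factors also raise, were listed with earlier results of these data known. All 25 were tested. Injury raised 19 and lowered 1 in preconditioned mice, with a median of 1.45 (1.48 with Fgb and Saa3 at their bounds), beside 33% higher and 19.4% lower of all genes tested. It raised 21 and lowered 1 in normoxic mice, with a median of 2.23, beside 41.6% higher and 30.1% lower. Of the 25, Timp1, Saa3, Serpina3n and Fgb reached FPKM 1 in RIRI libraries alone, so that a difference with injury was built into their passing. In preconditioned against normoxic RIRI kidneys 14 of 25 were lower and 0 higher, with a median of -0.78. The shares of all genes tested were 17.4% lower and 24.7% higher. Without preconditioned RIRI replicate 1 the counts were 14 and 0 and the median was -0.95. Counts of the 25 without any other single library are not given here. The difference between the injury effects was negative and called for 11 of 25, beside 12.6% of all genes tested, and for 12 without preconditioned RIRI replicate 1. Among these calls, that of Myc was lost without preconditioned RIRI replicate 2 (limma adjusted p = 0.0594) and without a filter (0.0706). Those of Timp1 and Saa3 were lost with limma voom on recovered reads (0.359 and 0.265). The uncalled differences of Cebpb and Cebpd were called in some alternatives.

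Lcn2, which encodes a siderophore-binding lipocalin used as a marker of kidney injury, had 775, 526 and 890 FPKM in preconditioned RIRI kidneys and 1557, 3009 and 2419 FPKM in normoxic RIRI kidneys, with no overlap between them. Timp1, an inhibitor of matrix proteases, had 26.7, 22.8 and 19.4 FPKM in preconditioned RIRI kidneys and 56.6, 31.5 and 58.4 FPKM in normoxic RIRI kidneys, also apart. Between the injured groups Lcn2 changed by -1.65 ± 0.27 (limma adjusted p = 0.000652), Timp1 by -1.02 ± 0.19 (0.00176), the growth regulator Myc by -1.02 ± 0.22 (0.00368) and the transcription factor gene Cebpb by -1.12 ± 0.18 (0.000646). Bcl2l1, which encodes the survival protein Bcl-xL, had 74.0, 56.2 and 80.4 FPKM in preconditioned RIRI and 109, 152 and 135 FPKM in normoxic RIRI kidneys, a change of -0.90 ± 0.14 (limma adjusted p = 0.000475). Saa3, an acute phase gene, had 1.86, 0.0533 and 0.164 FPKM in preconditioned RIRI and 5.73, 12.7 and 5.24 FPKM in normoxic RIRI kidneys, a change of -2.45 ± 0.35 (limma adjusted p = 0.000327). The neutrophil markers, 7 of 10 tested, were all 7 lower in the same comparison with a median of -1.70, beside 17.4% of all genes tested called lower. Which libraries carried each of these markers past the filter was not checked, so their count is no independent sign of a difference. Their part in these results was not tested.

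**Figure D5:**
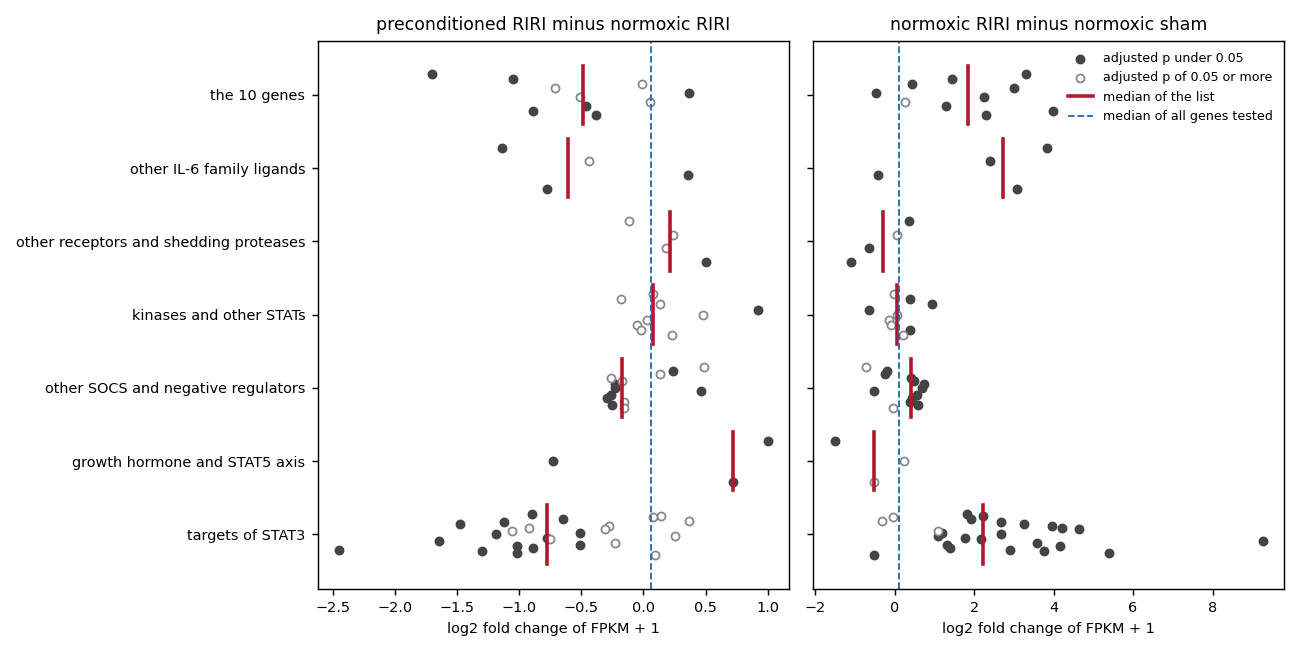
Log2 fold change of FPKM + 1 for the 10 genes and 6 lists of related genes, in preconditioned RIRI minus normoxic RIRI kidneys (left) and normoxic RIRI minus normoxic sham kidneys (right), 1 point per gene, filled where the adjusted p was under 0.05, with the median of each list and, dashed, that of all genes tested. The targets of STAT3 lie mostly left of 0 on the left (median -0.78) and right of 0 on the right (median 2.23).

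Other inhibitors of the pathway were tested for all 13 genes listed. In preconditioned mice injury raised 7 and lowered 1, with a median of 0.19, or 5 and 0 without preconditioned RIRI replicate 1, and in normoxic mice it raised 8 and lowered 3, with a median of 0.41. Of all genes tested, 52.4% were called in preconditioned and 71.7% in normoxic mice. Ptpn11, which encodes the phosphatase SHP2, rose by 0.73 ± 0.08 in normoxic mice, Ptpn2, a phosphatase of JAK and STAT proteins, by 0.69 ± 0.08, Socs6 by 0.58 ± 0.07 and Pias4 by 0.49 ± 0.07 (limma adjusted p at most 7.02e-05). In preconditioned mice Pias4 changed by 0.19 ± 0.07 (limma adjusted p = 0.0435) and by 0.06 after rescaling (0.484). That call was also lost without preconditioned RIRI replicate 2 or 3, normoxic RIRI replicate 3, preconditioned sham replicate 1 or 3 or any normoxic sham replicate, at adjusted p of 0.053 to 0.183. Socs6 changed by 0.25 ± 0.07 in preconditioned mice (limma adjusted p = 0.0111), by 0.14 after rescaling (0.147) and by 0.21 without preconditioned sham replicate 2 (0.0529). Between the injured groups 5 of 13 were lower and 2 higher, where 42.1% of all genes tested were called in either direction, among them Socs4 at -0.29 ± 0.07 (limma adjusted p = 0.00749) and Ptpn6, a phosphatase of blood cells, at 0.46 ± 0.11 (0.0069). Among the 5 were Ptpn2 and Ptpn11 at -0.23 ± 0.08 each (limma adjusted p = 0.0426 and 0.0406), whose calls were lost without either of preconditioned RIRI replicates 2 and 3 or of normoxic RIRI replicates 2 and 3, and without most sham libraries, at adjusted p up to 0.134 for Ptpn2 and 0.16 for Ptpn11. Cish, a further feedback gene of STAT5, ranged from 3.79 to 17.9 FPKM among normoxic sham kidneys alone and was not called in any comparison.

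For the growth hormone axis that SOCS2 restrains, 3 of 4 genes were tested. Ghr, the growth hormone receptor gene, had 121, 112 and 99.0 FPKM in preconditioned RIRI kidneys, 60.7, 51.2 and 52.4 FPKM in normoxic RIRI kidneys, 161, 146 and 141 FPKM in preconditioned sham kidneys and 156, 166 and 152 FPKM in normoxic sham kidneys. The 2 sham groups overlapped and the injured groups stood below them and apart from each other. Ghr was higher in preconditioned than in normoxic RIRI kidneys by 1.00 ± 0.09 (limma adjusted p = 2.52e-05), while Igfbp3, which encodes a carrier of insulin-like growth factors, was lower by -0.73 ± 0.15 (0.00307). Prlr, the prolactin receptor gene, which was chosen after its values were seen, had 3.69, 2.34 and 7.07 FPKM in preconditioned sham and 0.839, 0.655 and 0.879 FPKM in normoxic sham kidneys. It reached FPKM 1 in preconditioned libraries alone, so that a difference with preconditioning was built into its passing of the filter. Prlr was the only gene of the 6 lists called between the sham groups, at 1.49 ± 0.24 (limma adjusted p = 0.0255). That call was lost without a filter (0.0718), without preconditioned sham replicate 1 (1.54, 0.0622) and without normoxic sham replicate 1 (1.51, 0.0954), 2 (1.43, 0.105) or 3 (1.53, 0.108).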

How the data were processed

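RNA of 12 mouse kidneys was sequenced, 3 per group, from total RNA extracted with TRIzol and libraries of a VAHTS Universal V10 kit on a DNBSEQ-T7, per the labels' protocols, with the same batch number for all. The authors deposited 1 table of FPKM for 25553 gene symbols. Per the submitters' processing notes, the authors worked on build mm10 and list HTSeq and DESeq2, with neither a version nor a role. The aligner, the annotation and the use of strand in counting are not stated in the sources used here. Il6, Il6ra, Stat3 and Socs2 overlap annotated long noncoding RNAs, whose reads could then be shared.

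FPKM of 1 gene are whole multiples of what 1 read is worth. Whole reads were recovered from these steps for 25553 genes at a tolerance of 0.0001, and their totals followed the libraries' relative depth (0.962 to 1.04) to within 0.0257%. A recovered count can be a whole fraction of the true one. They served for depth, for the reads of Il6 and for 1 alternative. No gene had an equal FPKM above 0 in any of the 66 pairs of libraries.

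Limma 3.58.1 in R 4.3.3 was fitted to log2(FPKM + 1) with a mean-variance trend, as 1 fit of 4 group means to 12 libraries, on genes that reached FPKM 1 in 3 or more libraries. The pseudocount of 1 understates changes of low genes. The script was tested on simulated data. Counts of calls were compared with those of all genes tested. The 10 genes, the 6 lists and the tests were chosen with earlier results of these data known. Named were all 10 genes, the called genes of each list with the smallest adjusted p, up to 4 for normoxic RIRI against normoxic sham and 2 for preconditioned against normoxic RIRI, and the 3 genes most correlated with Socs3 and with Socs2. Some genes that this rule names are not reported here. Other genes are named to describe the pathway or a count, and Prlr, Fgg and Fgb were chosen after their values were seen. Leaving out single libraries for ratios of mean FPKM and for the Il6 bound was added after the data were seen.

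Positions and promoters are from RefSeq on GRCm38.p6, the assembly of mm10. All 10 symbols were found for positions, and 9 have a promoter entry (Socs2 has no entry used here). The AP-1, C/EBP and NF-kB motifs were added after the data were seen. Each choice was also varied alone: the filter was dropped or raised to FPKM 5 (which loses Il6ra, Socs1 and Socs2), the pseudocount lowered to 0.1, the values rescaled by median ratio or quantile normalized, the trend left out, the fit restricted to the compared groups, the replicate number added as a block, recovered reads tested with limma voom, and each library omitted in turn.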

Additional observations from a re-analysis of the deposited data

Results flagged for a closer look

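The injury effect differed between preconditioned and normoxic mice for 3 of the 10 genes, by a test of that difference across all 12 libraries, a share near the 23.9% called among all genes tested. Each value is a log2 difference of FPKM + 1, injury effect in preconditioned mice minus injury effect in normoxic mice, and a negative one is a smaller rise in preconditioned mice. For Il6ra it was -0.98 ± 0.27 (SE), from 0.45 in preconditioned and 1.44 in normoxic mice, and it was lost in 6 of 19 alternatives at limma adjusted p up to 0.0831. For Stat3 it was -0.66 ± 0.19, from 1.63 in preconditioned and 2.29 in normoxic mice, lost in 7 of 20 alternatives at limma adjusted p up to 0.0633. For Socs3 it was -0.94 ± 0.27, from 3.04 in preconditioned and 3.98 in normoxic mice, lost in 10 of 20 alternatives at limma adjusted p up to 0.168.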

How the results depend on the processing

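With 3 mice per group, calls near the threshold turn on single libraries. Over all settings and 10 genes, 961 results stayed on their side of the threshold, 47 lost a call, 17 gained one and 0 reversed a called direction. In normoxic RIRI against normoxic sham kidneys 9 genes were called in every alternative, or 7 of the 7 tested with a filter at FPKM 5, and in preconditioned RIRI against preconditioned sham kidneys 7 to 9. In preconditioned against normoxic RIRI kidneys the 6 calls became 3 without a filter and in a fit of only the groups compared, and 3 to 7 with 1 library left out. The cause was not tested. Il6ra, Lifr and Socs3 were called there in every alternative that tested them. The 3 differences between injury effects became 0 by limma without a filter (4 at an unadjusted p under 0.05), 1 with voom on recovered reads, and 0 to 5 with 1 library left out. The uncalled Lif difference lay between -1.12 and 0.02 over the alternatives. Between the sham groups 0 of the 10 genes were called in every alternative. Over all genes, 5203 calls between the injured groups became 3373 in a fit of those groups alone. The 52 calls between the sham groups became 31 with a pseudocount of 0.1, 303 in a fit of those groups alone and 22 to 80 with 1 library left out, and 44.23% of them were higher as deposited, 23.88% after rescaling and 23.26% after quantile normalization.

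The labels do not state that the replicate numbers pair the samples. Deviations of same-numbered libraries from their group means correlated at -0.248 to 0.165 over 18 pairs, 4 of them over 0.1. Of 12 libraries, 5 correlated best with their own number. With 3 libraries per group, these values do not show whether the numbers mark a block. With the replicate number as a block, 9, 8, 5 and 0 genes were called in the 4 comparisons in the order of the report and 3 for the difference between injury effects. Between the injured groups Stat3 (limma adjusted p = 0.0519) and Socs2 (0.061) were lost and Osmr (0.0414) was gained under the block.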

Other observations

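The fibrinogen genes, which belong to the acute phase response, varied more between injured mice than between injured groups. Fgg had 340, 9.85 and 43.4 FPKM in preconditioned RIRI kidneys and 18.0, 45.1 and 353 FPKM in normoxic RIRI kidneys, against at most 1.22 FPKM in preconditioned sham and 2.76 FPKM in normoxic sham kidneys. Fgb had 114, 0.979 and 8.35 FPKM in preconditioned RIRI kidneys and 4.77, 12.2 and 189 FPKM in normoxic RIRI kidneys. Preconditioned RIRI replicate 1, the highest of its group for Il6, was the highest for both, while in normoxic RIRI kidneys the highest Il6 was in replicate 2 and the highest fibrinogen in replicate 3. These genes were chosen after their values were seen.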
